A study of Mus musculus with 3 samples.

Results

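Globin genes and 2 genes of the red cell surface were followed in mouse liver RNA set against UMRR (Universal Mouse Reference RNA), which is sold as a mixture of RNA from cultured mouse cells and serves arrays as a shared reference. They were found as the probes whose only gene symbol in the platform annotation was Hba-a1, Hba-a2, Hbb-bh1, Slc4a1 or Epor, or began with Hba or Hbb. This gave 68 of 16273 probes and 8 of 7984 genes, because Hbb-bs, Hbb-bt and Hbb-y were added by the start of their symbol. The study hybridised purchased liver total RNA, labelled with Cy5, together with purchased UMRR, labelled with Cy3, on each of 3 arrays. Both RNAs were turned into cRNA in 1 round of amplification. The labels give no strain, age, sex or number of animals for the liver RNA. Each RNA is 1 catalogue product, so the arrays repeat 1 RNA pair and their spread may be technical. With no dye swap, dye bias is part of every ratio.

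Haemoglobin carries oxygen in red cells and is built from pairs of alpha and beta chains, each holding a haem group. In the mouse the alpha chains come from Hba-a1 and Hba-a2 and the adult beta chains, in the haplotype named s, from Hbb-bs and Hbb-bt, while Hbb-bh1 and Hbb-y are beta-like genes of the embryo. Slc4a1 encodes band 3, the anion exchanger that anchors the red cell skeleton, and Epor encodes the erythropoietin receptor, which red cell precursors need to survive. The liver makes red cells in the fetus; in the adult its blood vessels carry them.

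The deposited values are log ratios of both dyes with no stated base or direction. They are read here as log2 ratios, and every value and fold below would be larger if they were natural logs. Positive values were read as higher in liver because the 4 measured hepatocyte genes, Apoc3, Ambp, Rbp4 and Vtn, lay between 4.01 and 5.17 on the log2 scale. An exact 0 was read as no measured ratio. It was listed for 5238, 3832 and 4823 probes on arrays 1, 2 and 3. A ratio on every array was left for 9910 probes and 5520 genes, and for 38 of the 68 probes and 7 of the 8 genes. Probes of a gene were averaged on each array. Precision is limited by having 3 arrays. Adjusted p-values below describe repeats of 1 RNA pair, dye bias included, and do not reach beyond it.

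The members were chosen from this same comparison, so their ratios are a description with no test. In a limma fit over all genes with Benjamini-Hochberg adjustment at 0.05, 30.1% of 5520 genes were higher in liver and 33.9% lower, 64.0% in all. Of the 7 measured members 5 were on the higher side and 2 did not pass. Without array 1 all 7 were on the higher side, beside 34.9% of all genes. With exact zeros kept as ratios of 1, 3 of 8 were, while 2391 of 7984 genes passed in either direction. With probes that had a ratio on at least 2 arrays, 6 of 8 were on the higher side, while 3777 of 6329 genes passed in either direction. With the trend and robust settings of limma 6 of 7 were on the higher side, while 3568 of 5520 genes passed in either direction. Nothing is read from these member counts. In RNA from a whole organ, more cells of a type and more RNA per cell cannot be told apart.

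The sequence before the start site is shown for the adult globin genes, whose ratios lay close together, and for Hbb-y and Epor, whose ratios were lower or missing. The sequences are from RefSeq in build GRCm38.p6, and 6 of the 8 genes had an entry; Hbb-bh1 and Slc4a1 had none. Each run is the 130 bases that end just before the annotated start, 5′ to 3′ on the strand of the gene. Capitals mark, on either strand, letters known from globin promoters: CCAAT for the box of that name, TATAA for the box that positions the start, CATAAA as its variant form, CACCC for the box bound by Klf1 and GATAA as the core of a site for Gata1. Neighbouring or overlapping matches run together.
Hba-a1, chr11:32283542-32283671, plus strand: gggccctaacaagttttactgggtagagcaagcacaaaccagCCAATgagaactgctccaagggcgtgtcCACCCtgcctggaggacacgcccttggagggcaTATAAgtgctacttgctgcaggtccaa
Hbb-bs, chr7:103827929-103828058, minus strand: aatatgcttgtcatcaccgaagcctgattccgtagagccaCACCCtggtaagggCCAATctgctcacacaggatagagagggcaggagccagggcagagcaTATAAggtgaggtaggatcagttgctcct
Hbb-bt, chr7:103813924-103814053, minus strand: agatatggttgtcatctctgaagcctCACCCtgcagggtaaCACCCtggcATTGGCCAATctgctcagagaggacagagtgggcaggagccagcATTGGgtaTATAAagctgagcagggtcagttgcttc
Hbb-y, chr7:103853208-103853337, minus strand: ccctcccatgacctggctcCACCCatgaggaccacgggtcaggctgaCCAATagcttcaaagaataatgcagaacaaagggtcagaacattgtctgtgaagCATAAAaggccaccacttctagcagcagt
Epor, chr9:21963577-21963706, minus strand: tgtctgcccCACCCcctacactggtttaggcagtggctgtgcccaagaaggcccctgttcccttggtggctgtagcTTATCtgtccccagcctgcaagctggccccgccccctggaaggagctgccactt

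The alpha globin genes could not be told apart by this sequence. The 300-base entries of Hba-a1 and Hba-a2 shared a run of 297 bases and differed only in an annotated start placed 3 bases apart, so Hba-a2 is not printed. Between Hbb-bs and Hbb-bt, 100 of 132 aligned positions (75.8%) were identical, against 74 of 146 (50.7%) between Hbb-bs and Hbb-y. CCAAT began 88 bases before the start in Hba-a1, 76 in Hbb-bs, 75 in Hbb-bt on the strand of the gene and 83 in Hbb-y. TATAA began 27, 29 and 28 bases before the start in Hba-a1, Hbb-bs and Hbb-bt, and Hbb-y held CATAAA 29 bases before it. In Epor the marked letters were CACCC and a GATAA on the strand opposite to the gene, printed as its reverse complement 54 bases before the start. Of 32843 promoter windows of this length, 22.4% held CCAAT, 12.7% TATAA, 5.59% CATAAA, 11.4% GATAA and 33.7% CACCC. A match is a description of letters and does not show a site in use.

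Alpha globin had the highest ratios of the group. Hba-a1 stood at 4.56, 5.06 and 5.21 on arrays 1, 2 and 3, a mean log2 ratio of 4.94 ± 0.34 (SD, n = 3 arrays) or 30.7-fold, from 12 probes. It was ranked 17 of 5520 genes. Array 1 was lowest and array 3 highest. Hba-a2, read by 4 probes, stood at 4.32, 4.99 and 4.86, with a mean of 4.72 ± 0.35 or 26.4-fold and rank 23. Array 1 was again the lowest, with array 2 the highest. Because the genes are near-identical, a probe named for either can take up RNA of both.

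The adult beta globins followed. Hbb-bs stood at 4.23, 4.87 and 4.98 on arrays 1, 2 and 3, a mean log2 ratio of 4.70 ± 0.40 (SD, n = 3) or 25.9-fold from 11 probes, at rank 25. Hbb-bt stood at 4.02, 4.59 and 4.56, a mean of 4.39 ± 0.32 or 21.0-fold from 6 probes, at rank 37. In both genes array 1 was the lowest while the other arrays lay close together. These genes are also alike in sequence, so the split between them is uncertain. Of all 5520 genes 54 (0.978%) had a mean log2 ratio of at least 4, and the 4 adult globin genes were among them.

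The order from Hba-a1 through Hba-a2 and Hbb-bs to Hbb-bt was not firm at each step. Hba-a1 exceeded Hba-a2 by 0.24, 0.072 and 0.35 on arrays 1, 2 and 3, a mean difference of 0.22 ± 0.14 (SD, n = 3). Hba-a2 exceeded Hbb-bs on arrays 1 and 2 and lay below it on array 3, with a mean difference of 0.025 ± 0.13, so this pair did not differ beyond the spread. Hbb-bs exceeded Hbb-bt on each array, by 0.22, 0.28 and 0.42. Taken by chain, the 16 alpha probes exceeded the 17 adult beta probes by 0.34, 0.27 and 0.29, a mean difference of 0.30 ± 0.040. That difference repeated closely between arrays but was smaller than the spread between probes of any of the 4 genes, described next.

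**Figure D1:**
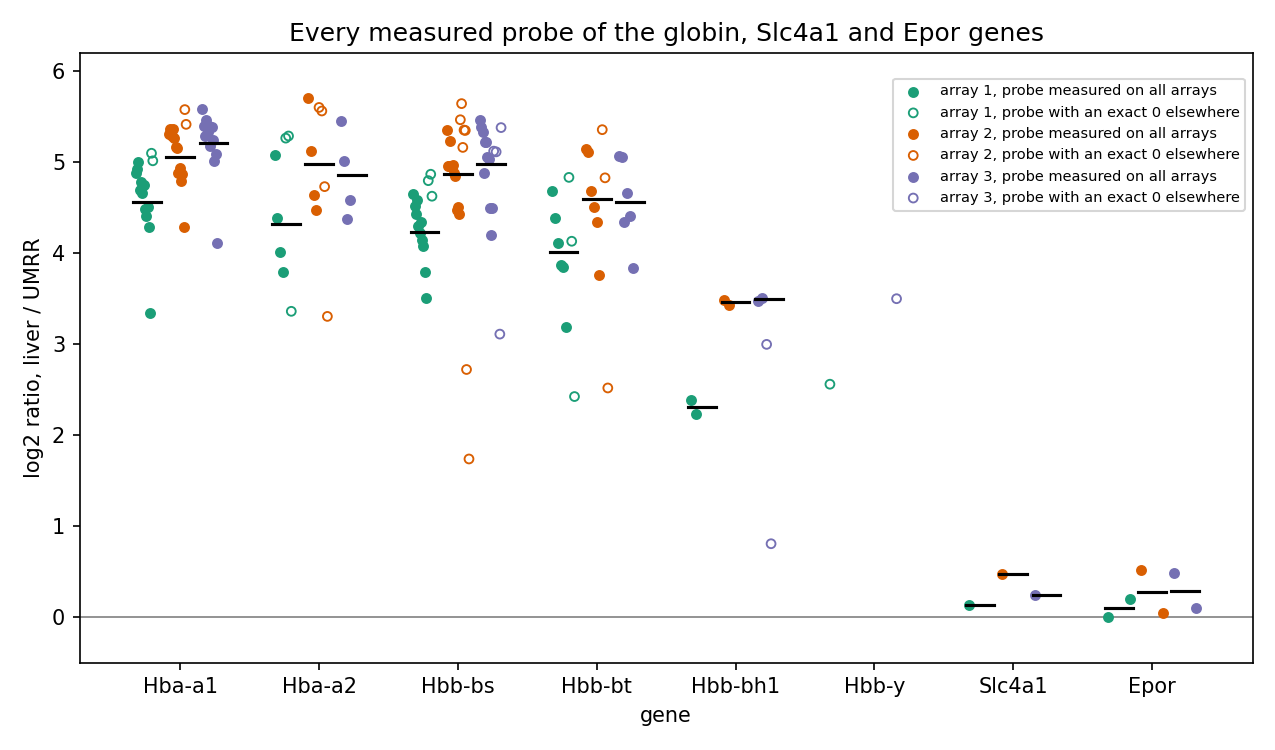
Log2 ratio of liver over UMRR (vertical axis) for every measured probe of each gene (horizontal axis), coloured by array; filled points are probes measured on all arrays, open points are probes with an exact 0 on another array, and black bars are the mean of the filled points. The filled points of the adult globins lie between 3.19 and 5.70 and lowest on array 1, those of Hbb-bh1 between 2.23 and 3.51, and those of Slc4a1 and Epor near 0.

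Probes of 1 adult globin gene differed more than repeats of a probe did once the shift between arrays was taken out. For Hba-a1 the probe means ran from 3.91 (probe 6751) to 5.26 (probe 13536), or 15.1-fold to 38.2-fold. Probe 6751 stood at 3.34, 4.29 and 4.11 on the 3 arrays and was the lowest Hba-a1 probe on each; the next lowest, probe 15064, stood at 4.29, 4.87 and 5.09. Hba-a2 ran from 4.29 (probe 7267) to 5.41 (probe 3178). Probe 3178, at 5.08, 5.70 and 5.46, had the highest mean of all 33 adult globin probes. Hbb-bs ran from 4.14 (probe 4787) to 5.16 (probe 2144). Hbb-bt ran from 3.60 (probe 10386) to 4.96 (probe 16659), the widest span of the beta genes. On each array probe 10386 was the lowest of the adult globin probes measured on all arrays.

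The SD between the probe means of a gene was 0.37 for Hba-a1, 0.52 for Hba-a2, 0.33 for Hbb-bs and 0.49 for Hbb-bt. The SD between its array means was 0.34, 0.35, 0.40 and 0.32 in the same order, which for Hbb-bs was the larger of these SDs. Once the mean of each probe and of each array was taken out, the residual SD was 0.13, 0.11, 0.16 and 0.12 in the same order. The rank of a probe within its gene was thus largely shared by the arrays. Among 180 other genes with at least 4 probes, the median SD between probe means was 0.25, with quartiles of 0.14 and 0.46. Only 6 of those had a mean log2 ratio of at least 2, and their SD ran from 0.25 for Ctrb1, a pancreatic protease, to 0.98 for Cela3b, a pancreatic elastase. The adult globins lay inside that range.

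Array 1 gave lower globin ratios than the other arrays. All 33 adult globin probes measured on every array had their lowest value there. Array 2 exceeded array 1 by 0.58 ± 0.16 (SD over 33 probes), with single probes between 0.28 and 0.95. Array 3 exceeded array 1 by 0.65 ± 0.22, between 0.23 and 1.00. Between arrays 2 and 3 the mean difference was 0.071 ± 0.22, with array 3 the higher for 23 of 33 probes. Over the 5513 genes outside the group, array 1 was lowest for 40.5%, and the mean differences of arrays 2 and 3 from array 1 were 0.015 ± 0.43 and 0.022 ± 0.38.

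Other genes far above a ratio of 1 were also lower on array 1, by less on average, with gene values set beside single globin probes. Of 50 other genes with a mean log2 ratio of at least 4, 38 (76.0%) were lowest on array 1, and arrays 2 and 3 exceeded it by 0.34 ± 0.33 and 0.23 ± 0.31 (SD over genes). In those genes the mean of array 3 minus array 2 was -0.12 ± 0.26. Over the 33 globin probes it was above 0, but not for each gene. Hba-a2 (4.99 on array 2 and 4.86 on array 3) and Hbb-bt (4.59 and 4.56) were lower on array 3. Probes of 1 globin family share their target RNA, so the 33 probes are not independent measurements of these differences between arrays. Leaving out array 1 raised the mean log2 ratio to 5.13 for Hba-a1, 4.92 for Hba-a2, 4.93 for Hbb-bs and 4.58 for Hbb-bt, which exchanged Hba-a2 and Hbb-bs in order.

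**Figure D2:**
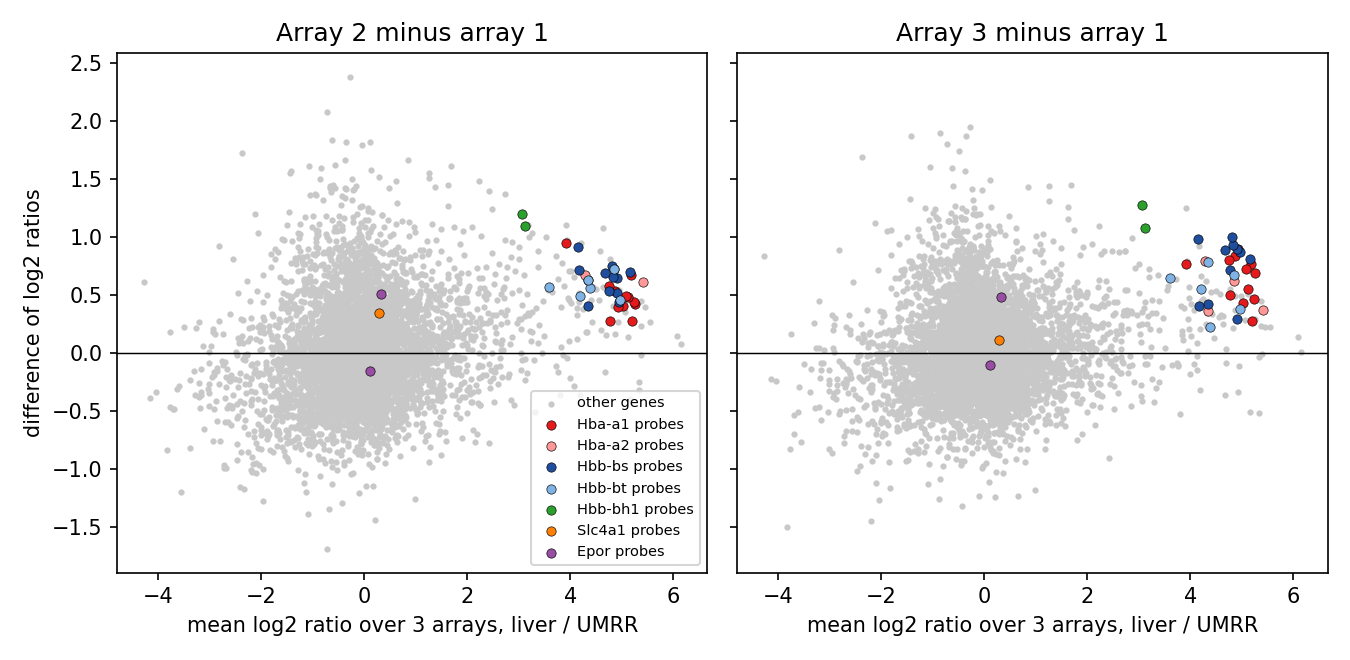
Difference of the log2 ratio on array 2 (left) or array 3 (right) from array 1 (vertical axes) against the mean log2 ratio over 3 arrays (horizontal axes); grey points are other genes and coloured points are single probes of the named genes, measured on all arrays. The adult globin probes all lie above 0 in both panels, between 0.28 and 0.95 on the left and 0.23 and 1.00 on the right.

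The embryonic beta-like genes had lower and less complete ratios. Hbb-bh1 stood at 2.31, 3.46 and 3.49 on arrays 1, 2 and 3, a mean log2 ratio of 3.09 ± 0.67 (SD, n = 3) or 8.51-fold, at rank 101. Array 1 lay more than 1 log2 unit below the others, and the SD was at least as high as in 98.8% of all genes. Both complete probes gave nearly the same values, with means of 3.12 (probe 18337) and 3.06 (probe 15230). Of the other 4 Hbb-bh1 probes, 1 was listed at 3.00 and 1 at 0.81, each on array 3 alone, and 2 were at exact 0 on every array. Thus the gene mean rests on 2 of 6 probes, and a probe with a much lower ratio did not enter it.

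Hbb-y had a ratio from 1 of its 3 probes, probe 9175, at 2.56 on array 1 and 3.50 on array 3, with exact 0 on array 2. Its other probes were at exact 0 throughout, so Hbb-y was left out of the fit. Where measured, its values lay near those of Hbb-bh1 on the same arrays. Hbb-bs exceeded Hbb-bh1 by 1.92, 1.41 and 1.49 on arrays 1, 2 and 3, a mean difference of 1.61 ± 0.28 (SD, n = 3). The groups of single values of these genes did not overlap on any array among probes measured on all arrays. Outside that filter they did. Hbb-bs probe 2524 (2.72 on array 2 and 3.11 on array 3) and probe 8793 (1.74 on array 2) lay below both complete Hbb-bh1 probes there. How much adult beta globin RNA binds to the probes of the embryonic genes was not tested.

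The erythroid membrane genes stood near a ratio of 1. Slc4a1 was measured by 1 of its 2 probes, at 0.13, 0.48 and 0.25 on arrays 1, 2 and 3, a mean log2 ratio of 0.28 ± 0.18 (SD, n = 3) or 1.22-fold, at rank 1734. Its other probe was at exact 0 on all arrays. Epor stood at 0.098, 0.28 and 0.29, a mean of 0.22 ± 0.11 or 1.17-fold, at rank 1907. Slc4a1 and Epor differed by 0.062 ± 0.12 with the sign turned on array 3, which is within their spread. The gap from Hbb-bh1 down to Slc4a1, by contrast, was 2.18, 2.99 and 3.25 on the 3 arrays. The nominal erythroid group therefore held ratios from 1.17-fold to 30.7-fold, and its label as 1 group does not describe a shared ratio.

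Both Epor probes are assigned to the same sequence record in the annotation and yet differed in pattern. Probe 8766 stood at -0.0016, 0.51 and 0.48, low on array 1. Probe 11171 stood at 0.20, 0.047 and 0.098, highest on array 1. Their means, 0.33 and 0.11, differed by more than the 0.13 that was the median absolute difference over 461 such pairs of probes on the array, and by less than the 90th percentile of 0.46. Another pair of 1 record belonged to Hba-a1. Probe 11948 stood at 4.41, 4.94 and 5.25, and probe 11947 was at exact 0 on every array. Among all 776 pairs of 1 record, 88 (11.3%) had 1 probe measured on all arrays and the other on none.

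Exact zeros were spread unevenly over the globin probes. Of 55 adult globin probes, 33 (60.0%) had a ratio on all arrays, close to the 60.9% of the 16205 probes outside the group. On array 3, 18 (32.7%) were at exact 0, against 11 (20%) on array 1 and 6 (10.9%) on array 2. Over the probes outside the group these shares were 29.6%, 32.2% and 23.6% in the same order. The adult globin share was thus near that of other probes on array 3 and smaller than theirs on arrays 1 and 2. Among the 44 adult globin probes with a ratio on arrays 1 and 2, 11 (25.0%) were at exact 0 on array 3. The same share was 5.25% of 10419 other probes, and 13.3% of the 105 other probes with a mean log2 ratio of at least 4 on arrays 1 and 2. Alpha and beta probes were alike in this, with 5 of 21 and 6 of 23.

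The probes that were at exact 0 on array 3 alone had high ratios elsewhere. On array 2 they ran from 2.52 to 5.64 around a median of 5.36, whereas the 33 probes measured on all arrays ran from 3.76 to 5.70 around a median of 4.95. On array 1 the medians were 4.83 and 4.39. An example is probe 16806 of Hba-a2, at 5.26 on array 1 and 5.60 on array 2. Probe 18123 of Hba-a1 stood at 5.10 and 5.58 on those arrays. The lowest of the 11 was probe 7487 of Hbb-bt, at 2.42 and 2.52. A further 3 probes, all of Hbb-bs, were at exact 0 on array 1 alone and stood between 2.72 and 5.47 on array 2. The sources used here do not give the reason for these zeros.

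Probes at exact 0 on every array were found for alpha globin but not for adult beta globin. They were 5 of 27 alpha probes (18.5%), 4 of Hba-a1 and 1 of Hba-a2, and 0 of 28 adult beta probes. Of the 9 probes of Hbb-bh1 and Hbb-y, 4 were of this kind. The share over all other probes was also 18.5%, so alpha globin did not stand out from them. Adult beta probes with low or single values still occurred: probe 8793 of Hbb-bs had 1.74 on array 2 and no other ratio, and probe 13509 had 5.38 on array 3 alone.

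**Figure D3:**
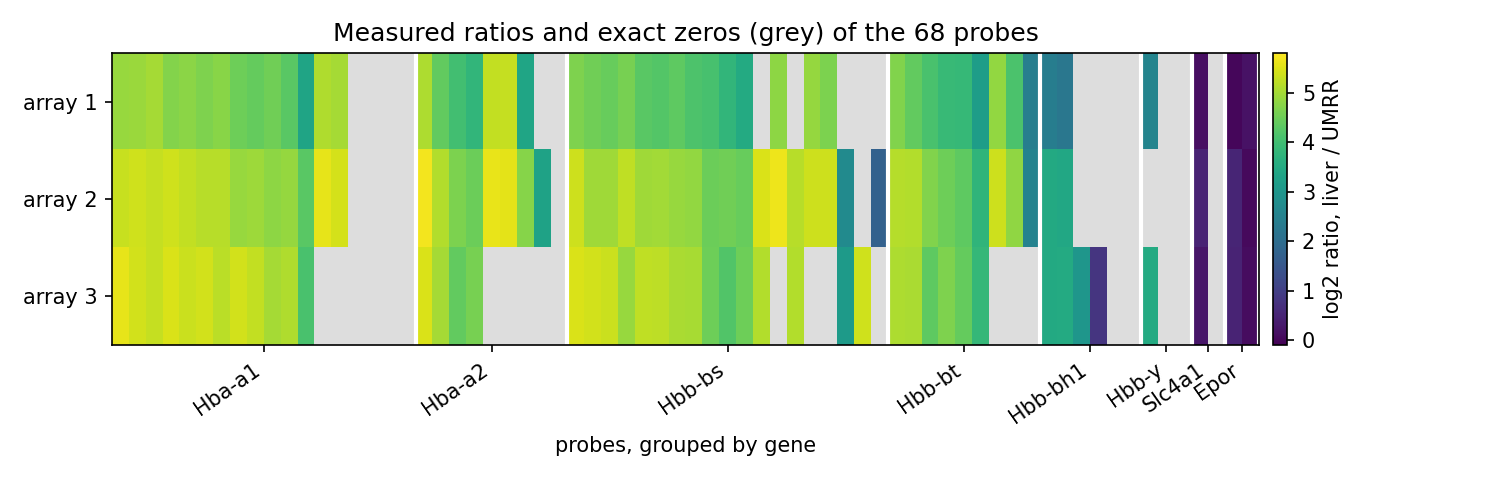
Log2 ratio of liver over UMRR (colour scale) of the 68 probes (columns, grouped by gene and ordered by the number of arrays with a ratio) on arrays 1, 2 and 3 (rows), with exact zeros in grey. Among adult globin probes array 3 has 18 grey cells, array 1 has 11 and array 2 has 6.

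Probes just outside the rule carried several symbols. Probes 1059 and 2586 were each assigned to 4 beta globin symbols, Hbb-bt, Hbb-bs, Hbb-b2 and Hbb-b1. Probe 1059 stood at 4.50, 5.42 and 5.54 on arrays 1, 2 and 3, with a mean of 5.15 ± 0.57 (SD, n = 3), close to the 5.16 of the highest Hbb-bs probe. Probe 2586 stood at 2.83 and 2.93 on arrays 1 and 2 and at exact 0 on array 3. No probe here had Hba-x, Hbb-bh2 or a theta globin as its only symbol.

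Other genes of red cell formation were compared by lists, whose counts stand beside 30.1% of all 5520 genes higher and 33.9% lower. Haem synthesis was measured by 1 of 9 listed genes. Urod, an enzyme of the middle of the pathway, was higher in liver at 1.18 ± 0.23 (SD, n = 3; limma adjusted p = 0.000248). Fech, which inserts iron into haem, stood at 1.37 and 1.52 on arrays 1 and 2 with exact 0 on array 3. Alas2, the red cell form of the first enzyme, had 0.53 on array 2 alone. In haem breakdown and export Blvra, which reduces biliverdin, was lower at -0.56 ± 0.053 (adjusted p = 0.00216), and Slc48a1, a haem transporter, stood at -0.13 ± 0.12 and did not pass (adjusted p = 0.29).

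Genes of the red cell membrane and skeleton went both ways, with 2 of 5 measured genes higher and 3 lower and a median of -0.60. The median of all 5520 genes was -0.028, with 30.1% higher and 33.9% lower. Cd59a, which shields cells from complement, stood at 2.02 ± 0.28 (SD, n = 3; limma adjusted p = 3.91e-05). Tmod3, an actin cap, stood at -1.81 ± 0.46 (adjusted p = 0.000223) and Slc14a1, a urea transporter, at -1.02 ± 0.10 (adjusted p = 0.000186). With exact zeros kept as ratios of 1, 1 of the 9 listed genes with a named probe passed, on the lower side; Cd59a (adjusted p = 0.0811) and Slc14a1 (-0.39, adjusted p = 0.135) were among those that lost their call.

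The erythroid transcription factor list had 4 measured genes of 19, of which 3 were higher and 1 lower, with a median of 0.45. E2f4, a factor of the cell cycle, stood at 0.67 ± 0.083 (SD, n = 3), Klf3 at 0.58 ± 0.18 and Lmo2, a bridge in the factor complex of blood precursors, at -0.72 ± 0.023; their limma adjusted p-values lay between 0.000677 and 0.00374. Gata1, Klf1 and Tal1 were not among the genes measured here. Without array 2 and without array 3, 2 genes were higher in place of 3. Of 7 measured red cell enzymes and related genes, with a median of 0.16, 2 were higher and 2 lower, while 3 did not pass. Hebp1, a haem-binding protein, stood at 4.13 ± 0.27 (adjusted p = 3.75e-06), Gpx1, a glutathione peroxidase, at 3.00 ± 0.31 (adjusted p = 1.04e-05) and Bnip3l, which removes mitochondria, at -1.02 ± 0.13 (adjusted p = 0.000226). Gpx1 lost its call with exact zeros kept as ratios of 1 (2.02, adjusted p = 0.0996). Without array 2 and without array 3, 1 gene of this list was lower in place of 2, and without array 1, 3 were higher. Hepatocytes also express Hebp1 and Gpx1. The carbonic anhydrases Car1 (2.41) and Car2 (1.84) had a ratio on array 2 alone.

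In the list of erythropoietin and stem cell factor signalling, RNA was lower for 4 of 5 measured genes, beside 33.9% of all genes. The median was -0.51. Without array 2, without array 3 and at a threshold of 0.01, 3 were lower in place of 4. With exact zeros kept as ratios of 1, 3 of 7 were lower. These RNA ratios do not measure signalling. Igf1r, a growth factor receptor, stood at -1.89 ± 0.53 (SD, n = 3; limma adjusted p = 0.000288) and Kitl, the stem cell factor, at -1.52 ± 0.33 (adjusted p = 0.000183). Stat5b, which carries the receptor's signal to the nucleus, went against them at 0.82 ± 0.14 (adjusted p = 0.000589), a call lost with exact zeros kept (0.64, adjusted p = 0.0861). Among other cytokine receptors 2 of 4 were lower, with a median of -0.26. Osmr (-0.60 ± 0.39, adjusted p = 0.0154) lost its call without array 2 (adjusted p = 0.0641) and array 3 (adjusted p = 0.081) and with exact zeros kept (adjusted p = 0.158), and Il3ra (-0.40 ± 0.18, adjusted p = 0.0172) lost it without array 3 (adjusted p = 0.080) and with exact zeros kept (adjusted p = 0.0889). Csf3r stood at 0.18 ± 0.16 and did not pass (adjusted p = 0.181). Of the anion exchanger relatives of Slc4a1, Slc4a10 was higher at 1.46 ± 0.32 and Slc4a8 lower at -0.84 ± 0.16, with adjusted p-values of 0.000200 and 0.000663.

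Genes of iron handling were higher in liver for 7 of 9 measured members, beside 30.1% of all genes, with a median of 1.77. Slc40a1, the iron exporter of macrophages and hepatocytes, stood at 4.13, 3.91 and 3.95 on arrays 1, 2 and 3, a mean log2 ratio of 4.0 ± 0.12 (SD, n = 3; limma adjusted p = 2.16e-06). It was highest on array 1, unlike the globins. Hfe, a regulator of iron uptake, stood at 2.83 ± 0.052 (adjusted p = 4.49e-06) and Iscu, the scaffold for iron-sulfur clusters, at 1.84 ± 0.11 (adjusted p = 1.83e-05). The mitochondrial iron importers Slc25a37 (-0.11 ± 0.17) and Slc25a28 (0.071 ± 0.33) did not pass, with adjusted p-values of 0.397 and 0.680. With exact zeros kept as ratios of 1, 4 of 14 were higher, while 2391 of 7984 genes passed in either direction. Lrp1, the receptor that takes up haem bound to haemopexin, was higher at 1.06 ± 0.27 (adjusted p = 0.000522), the 1 measured gene of the scavenging list. Of other genes of the globin fold, Cygb had 1.09 on array 2 alone.

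Markers of other blood cells moved in part with the globins, beside 30.1% of all genes higher and 33.9% lower. Of the platelet list 2 of 3 measured genes were higher, with Clec1b at 3.26 ± 0.20 (SD, n = 3), a receptor that liver endothelium and Kupffer cells also express, and Treml1 at 0.94 ± 0.027; all 3 were higher without array 1, and Ppbp, a platelet chemokine, ranged from -0.17 to 1.02 over the arrays. Of the neutrophil list 2 of 3 were higher, with S100a9 at 2.23 ± 0.77 and Ngp at 1.72 ± 0.17. Array 1 was lowest for both. Csf3r, the other measured gene of that list, stood at 0.36, 0.10 and 0.064 on arrays 1, 2 and 3. It was highest on array 1 and did not pass (limma adjusted p = 0.181). With exact zeros kept S100a9 lost its call (adjusted p = 0.0555). Limma adjusted p-values of these 4 called genes lay between 4.76e-06 and 0.00058. Of 4 B cell genes 3 were lower and the median was -2.55, among them Ms4a1 at -3.62 ± 0.25 and Pou2af1 at -2.69 ± 0.16. The fourth, Ighm, the heavy chain of IgM, was higher at 1.65 ± 0.41 (adjusted p = 0.000229 in limma). Of 5 T cell genes 3 were higher and 1 was lower, with Cd3g at -1.51 ± 0.033 and Cd8a at 0.74 ± 0.11. The part of other blood cells in the globin ratios was not tested.

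Markers of other liver cells and of the exocrine pancreas are given for the same reason. Of the macrophage list Fcgr1 was lower at -0.61 ± 0.021 (SD, n = 3) and Slc40a1 higher; of the endothelial list Eng was higher at 1.63 ± 0.35 and Ramp2 stood at 0.16 ± 0.14 and did not pass (limma adjusted p = 0.198). Of 9 pancreatic acinar genes 8 were higher, beside 30.1% of all genes. The list ran from 0.22 to 5.55 around a median of 3.87, led by Reg2 at 5.55 ± 0.14 and Try4 at 5.38 ± 0.26. With exact zeros kept 5 of the 9 were higher, and Try4 lost its call (4.43, limma adjusted p = 0.0524). All 4 hepatocyte genes were higher, with a median of 4.57. The direction of the ratios was read from these same genes, so their sign is not a result. The means of the 4 adult globins lay within the range of both hepatocyte and acinar genes, and that of Hbb-bh1 lay below the hepatocyte range. What part tissue makeup of the purchased RNA plays in the globin ratios was not tested.

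**Figure D4:**
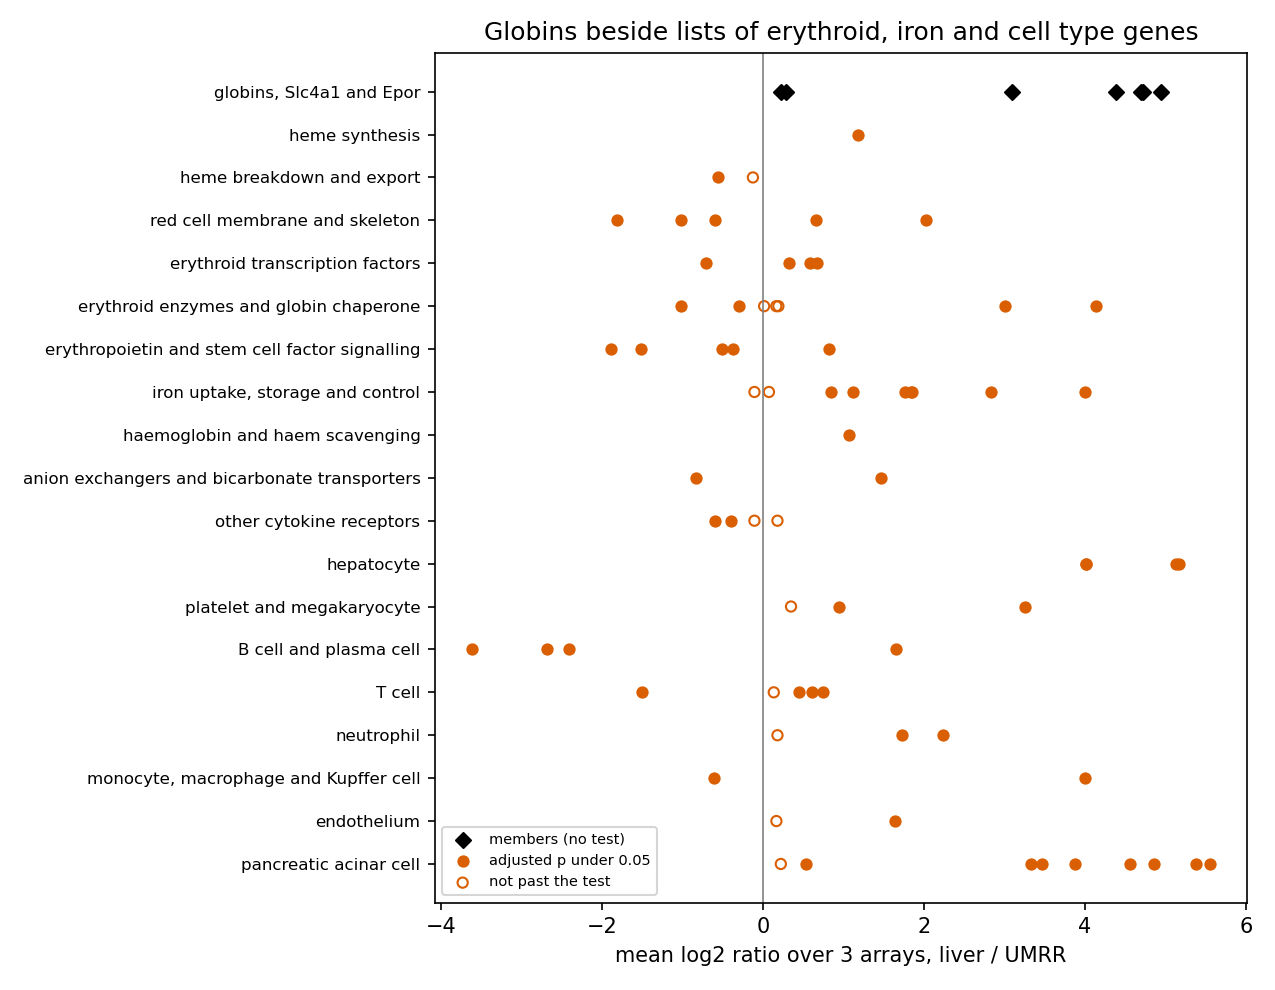
Mean log2 ratio of liver over UMRR over 3 arrays (horizontal axis) for each measured gene of the lists (rows, without that of alpha globin neighbours); filled circles passed the limma fit at an adjusted p of 0.05, open circles did not, and diamonds are the globins, Slc4a1 and Epor, which have no test. The 5 globin diamonds lie between 3.09 and 4.94 and those of Slc4a1 and Epor near 0, and iron genes lie mostly to the right of 0.

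The genes most like each member were taken as those with the smallest root mean square difference of the log2 ratio over the 3 arrays. For Hba-a1 these were Gnmt (0.072), Ctrb1 (0.11) and Papss2 (0.16), and for Hba-a2 Elovl2 (0.086), 1600014C10Rik (0.15) and Ctrb1 (0.15). Hbb-bs was closest to Elovl2 (0.17), Ctrb1 (0.20) and Gp2 (0.22). Hbb-bt was closest to Ctrl (0.055), Cela3b (0.097) and Gp2 (0.11), which are genes of the exocrine pancreas. Hbb-bh1 was closest to Dnajc22 (0.19), Abcg8 (0.22), a subunit of a sterol exporter, and Prxl2b (0.24). Slc4a1 was closest to Taco1 (0.020), Leng9 (0.033) and 4930588J15Rik (0.037), and Epor to Pla2g4d (0.0047), Uqcc1 (0.022) and Fam219a (0.023). Many genes have values near 0, so small differences are common there.

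None of the 4 measured neighbours of the alpha globin genes was higher in liver, beside 30.1% of all genes higher and 33.9% lower. Nothing is read from a count of so few genes. By order in the reference gene table (GRCm38.p6, used for order only), Snrnp25, a spliceosome gene 5 genes from Hba-a1, stood at -1.11 ± 0.13 (SD, n = 3; limma adjusted p = 0.000152). On the other side of the globins Efcab9 stood at 0.14 ± 0.089 and did not pass (adjusted p = 0.248), and Stk10, a kinase, was lower at -1.16 ± 0.24 (adjusted p = 0.000278). Fbxw11 was lower at -0.51 ± 0.30 (adjusted p = 0.0163), but not without array 2 (adjusted p = 0.0837), without array 3 (adjusted p = 0.0981) or with exact zeros kept as ratios of 1 (adjusted p = 0.139). The listed set of alpha globin neighbours also held Luc7l, Polr3k and Rgs11, which this gene table places on other chromosomes, so no count of that list is given. The beta globin genes had no measured neighbour within 10 genes.

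Neighbours of the membrane genes went both ways. Beside Slc4a1, Ubtf, a factor of ribosomal RNA transcription, stood at -0.50 ± 0.078 (SD, n = 3; limma adjusted p = 0.00401), a call that was lost without array 3 (adjusted p = 0.0512). Tmub2 (0.54 ± 0.11), Grn (0.62 ± 0.24) and Slc25a39, a mitochondrial carrier (1.27 ± 0.20), were higher, Gpatch8 was lower (-0.72 ± 0.23) and Hdac5 did not pass (-0.18 ± 0.13, adjusted p = 0.162). With exact zeros kept as ratios of 1, Grn (0.31, adjusted p = 0.0672) and Slc25a39 (1.16, adjusted p = 0.0580) lost their calls, as did Ecsit beside Epor (1.00, adjusted p = 0.0549). Beside Epor, Ecsit was higher at 1.60 ± 0.19 (adjusted p = 5.01e-05) and Rab3d lower at -0.61 ± 0.12 (adjusted p = 0.00204). Swsap1, the gene next to Epor, stood at 0.18 ± 0.42 and did not pass (adjusted p = 0.371), though it passed without array 1 (0.42, adjusted p = 0.00253). Gm45914 (-0.12 ± 0.16) and Elavl3 (-0.13 ± 0.20) did not pass either.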

How the data were processed

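Log ratios of 3 arrays of 2 colours were analysed, read as log2 ratios as deposited by the authors. How the arrays were scanned, corrected and filtered, and which log base was used, is not stated in the labels. Probes were named from the platform annotation, which gave 1 symbol to 12336 of them, several to 61 and none to 3876; by identifier 12228 of the 12336 were found in the RefSeq gene table (GRCm38.p6). Exact zeros were left out, and probes of a gene measured on all 3 arrays were averaged. The mean of each gene was tested two-sided against 0 in limma 3.58.1 (lmFit, then eBayes; R 4.3.3), with Benjamini-Hochberg adjustment over 5520 genes at 0.05; the fit was tested on simulated data. The members and lists were chosen with earlier results of these data known. Named were all members, of each pathway list the 3 largest absolute means and the called gene furthest against the median of its list, of each cell type list the largest 2, the 3 most like genes of each member, and up to 3 measured neighbours per side within 10 genes. Fech, Alas2, Car1, Car2, Cygb, Ppbp, Ighm, Slc25a37, Slc25a28 and the remaining hepatocyte genes lie outside that rule and were named after their values were seen. The alternatives were centring or scaling, leaving out each array, probes with a ratio on at least 2 arrays, zeros kept, median or single probes, natural logs, trend and robust eBayes, a threshold of 0.01 and a test against a 2-fold difference.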

Additional observations from a re-analysis of the deposited data

How the results depend on the processing

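Each of the 7 measured members stayed above 0 under every alternative run. With exact zeros kept as ratios of 1 the log2 ratio fell to 3.69 for Hba-a1, 3.32 for Hba-a2, 3.85 for Hbb-bs, 3.82 for Hbb-bt and 1.24 for Hbb-bh1, since the zeros enter the mean. Read as natural logs, the same genes stood at 7.13, 6.81, 6.78, 6.33 and 4.46. By single probes that differed from their gene by at least its SD, the mean was 3.91 (probe 6751) for Hba-a1, 5.41, 4.34 and 4.29 (3178, 4206 and 7267) for Hba-a2, 5.16, 4.17 and 4.14 (2144, 12010 and 4787) for Hbb-bs, 4.96, 4.85 and 3.60 (16659, 4118 and 10386) for Hbb-bt and 0.33 and 0.11 (8766 and 11171) for Epor. Leaving out 1 array gave 4.81 to 5.13 for Hba-a1, 4.59 to 4.92 for Hba-a2, 4.55 to 4.93 for Hbb-bs, 4.29 to 4.58 for Hbb-bt, 2.89 to 3.48 for Hbb-bh1, 0.19 to 0.36 for Slc4a1 and 0.19 to 0.29 for Epor. Of all genes 3535 passed, between 2755 and 4004 with 1 array left out, 2391 of 7984 with zeros kept and 816 in the test against a 2-fold difference. Of 74 measured genes of the lists, that of alpha globin neighbours included, 61 passed, and 31 in the test against a 2-fold difference. Of 73 genes outside the members that were picked by the naming rule, 13 lost their call with exact zeros kept. Genes named outside that rule are not in this count. No paired analysis was possible because the arrays form 1 group. Without scanner intensities, no bound by signal over background could be set.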
